A study of Mus musculus with 231 samples.

Results

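The 4 mature strands of the miR-143 and miR-145a hairpins, mmu-miR-143-3p, mmu-miR-143-5p, mmu-miR-145a-5p and mmu-miR-145a-3p, were followed through microRNA-seq libraries of mouse peripheral blood mononuclear cells (PBMC). They were taken by name and are 4 of 1863 miRNAs in the training count table, 4 of 1895 in the normalized training table and 4 of 1817 in the normalized validation table. All 231 libraries came from C57BL/6 mice. CM mice carried a conditional Cbfb-MYH11 knock-in (Cbfb56M/+/Mx1-Cre), in which Cre recombinase under the interferon-inducible Mx1 promoter switches on the leukemia fusion gene, and Ctrl mice were littermates without the fusion, labelled HW, CW or WT. Both arms received poly(I:C) at 14 mg/kg in 7 doses from an age of 6 to 8 weeks, so the injections were shared by both arms from month 1 on, and the month 0 libraries were taken before them. The training cohort held 53 libraries from 7 CM mice and 76 from 7 Ctrl mice, from month 0, before induction, to month 10. Its CM mice 3336, 3338, 3341 and 3357 and Ctrl mice 3349 and 3350 were female, and its other mice were male. The validation cohort held 60 libraries from 10 CM mice and 42 from 6 Ctrl mice, labelled by points 1 to 7 and L and not by months. Each arm of that cohort also held both sexes. The design text of the series gives 9 CM and 7 Ctrl mice for validation, and the arms here were those of the sample labels. The running numbers in the titles of CM mouse 3334 and Ctrl mouse 3335 cross over after month 5, so values of these mice before and after that month may come from different animals. Their labels were used as given, and results were also computed without both mice. The CM series ended at different months (month 4 for mice 3338 and 3357, month 10 for mouse 3368), so later CM groups held fewer mice.

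miR-143 and miR-145 are made together from a common primary transcript and are best known from the smooth muscle of the vessel wall, where they favor the contractile state, and from fibroblasts. Blood cells are known to hold little of either, which is why the pair can be read as a measure of non-blood RNA in a blood sample. Each hairpin gives a 5p and a 3p strand, of which one is usually kept by Argonaute (the guide) and the other mostly degraded. In these bulk samples, fewer cells of a type and less RNA per cell cannot be told apart.

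To show which miRNAs moved most like the pair, all others with a mean of at least 10 CPM (counts per 1000000, scaled by the study) were ranked by Spearman's rho over all training libraries. The 5 nearest to miR-143-3p and the 5 nearest to miR-145a-5p made 7 miRNAs, and 7 of the 7 had a mature sequence in the RefSeq table (build GRCm38.p6). Those that share a seed or head both rankings are printed 5′ to 3′, with the seed (bases 2 to 8, the part that pairs with targets) in capitals. mmu-let-7e-5p, of the let-7 family, lies at chr17:17830366-17830387 on the plus strand. mmu-miR-195a-5p (chr11:70235062-70235082) and mmu-miR-497a-5p (chr11:70234730-70234751) lie side by side on the plus strand and carry the seed of the miR-15/16 family. mmu-miR-330-5p (chr7:19181486-19181507) and mmu-miR-326-3p (chr7:99552328-99552348), both on the plus strand, share a seed although they come from separate loci.
mmu-let-7e-5p: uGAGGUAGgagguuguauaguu
mmu-miR-195a-5p: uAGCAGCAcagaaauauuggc
mmu-miR-497a-5p: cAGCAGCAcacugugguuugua
mmu-miR-330-5p: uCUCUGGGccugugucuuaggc
mmu-miR-326-3p: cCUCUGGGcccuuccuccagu

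The nearest profile of all was the pair itself: miR-143-3p and miR-145a-5p had rho = 0.916 over all training libraries, 0.930 over the 53 CM libraries and 0.892 over the 76 Ctrl libraries. The median rho of miR-143-3p with the 337 other miRNAs ranked was 0.0482. Next to miR-143-3p came let-7e-5p at rho = 0.722, miR-195a-5p at 0.712, miR-210-3p at 0.692, miR-330-5p at 0.665 and miR-152-3p at 0.665. Next to miR-145a-5p came let-7e-5p at 0.724, miR-210-3p at 0.686, miR-195a-5p at 0.681, miR-497a-5p at 0.674 and miR-326-3p at 0.673. Thus let-7e-5p, miR-195a-5p and miR-210-3p, the last known as a hypoxia-induced miRNA, stood near both strands, with a gap between them and the pair itself. These correlations describe libraries that share mice, depth and scaling, and no p is given. The mean level of let-7e-5p was 199.3 ± 103.2 CPM (SD) over the 53 CM libraries and 345.5 ± 136.2 CPM over the 76 Ctrl libraries. Those libraries repeat the same mice, and fewer CM mice reach the late months, so these means do not compare the arms at equal months.

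miR-143-3p was the abundant strand, miR-145a-5p was far lower, and the other 2 strands were near the floor. In the training cohort mmu-miR-143-3p ranged from 22.2 to 1705 CPM (median 452) and was counted in every library, with 74 to 10856 raw counts. By mean level it ranked 110 among the miRNAs listed. mmu-miR-145a-5p ranged from 1.39 to 143 CPM (median 25.7), also with no library at 0, from 4 to 798 counts. mmu-miR-145a-3p ranged from 0 to 29.6 CPM (median 2.80) with at most 237 counts, and 1 library was at 0. mmu-miR-143-5p never passed 2.56 CPM (median 0.613) and was at 0 counts in 14 libraries, where a count of 0 allowed a level of up to 0.474 to 1.21 counts per 1000000. The copy mmu-miR-145b, which differs little from miR-145a, gave at most 1 count, in 9 libraries. Total counts per training library were 1792809 to 7958411 (median 4437464), and limits and intervals from counts cover counting error only.

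Within each hairpin the guide strand took most reads, more evenly in miR-143 than in miR-145a. miR-143-3p made up 98.8 to 100% of the miR-143 counts of a library (median 99.8%, all training libraries). miR-145a-5p made up 57.9 to 100% of the miR-145a counts, with a median of 80% in the 53 CM libraries and 87.6% in the 76 Ctrl libraries. The number of miR-143-3p counts for each miR-145a-5p count was 9.37 to 53.8 (median 19.7). Both hairpins lie on the minus strand of chromosome 18 in build mm9 (GENCODE vM1): Mir143 at 61808850 to 61808912 and Mir145 at 61807470 to 61807557, 1292 bases apart. The annotated lincRNA Gm16908 lies on the same strand, 1715 bases upstream of Mir143. Other genes that may overlap the hairpins were not looked up.

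**Figure D1:**
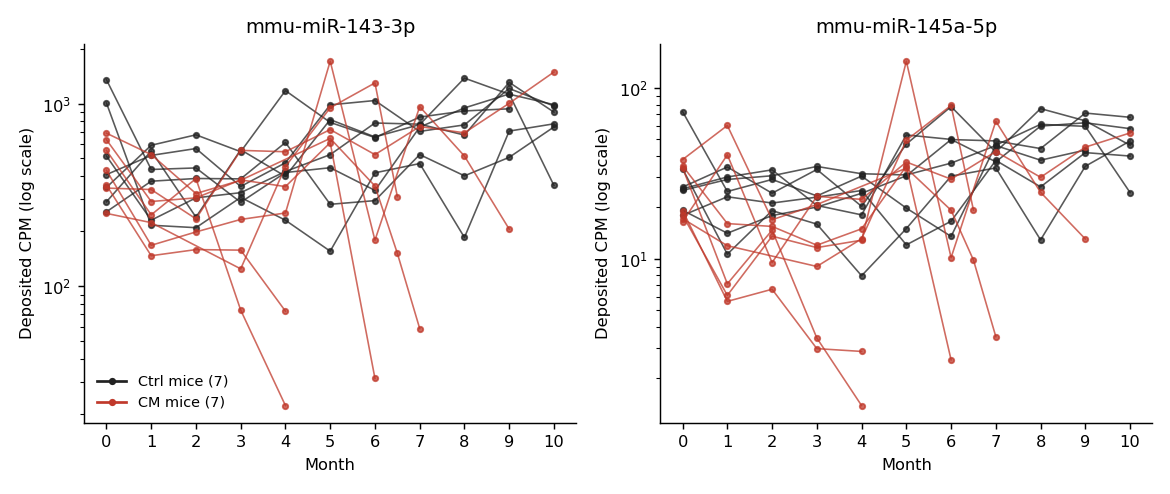
Deposited CPM (log axis) of mmu-miR-143-3p (left) and mmu-miR-145a-5p (right) by month in the training cohort, with 1 line per mouse, 7 CM mice in red and 7 Ctrl mice in black. Several CM lines end far below the Ctrl lines (22.2 CPM of miR-143-3p in mouse 3338 at month 4), while mouse 3368 ends at 1487 CPM.

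**Figure D2:**
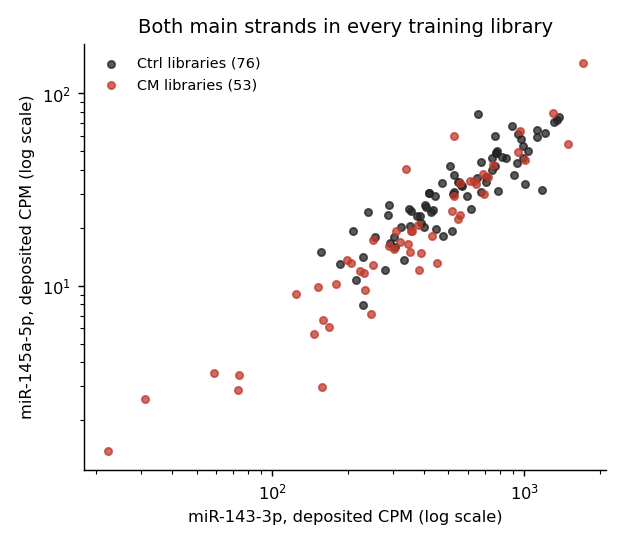
Deposited CPM of miR-145a-5p against miR-143-3p, both on log axes, in 53 CM (red) and 76 Ctrl (black) libraries. The points of both arms lie along a common band, with rho = 0.916 over both arms.

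Across mice the pair moved together as well. With each mouse's mean log2(CPM + 1) over all its months, Pearson's r of miR-143-3p with miR-145a-5p was 0.979 over 14 mice (permutation p = 2e-05, two-sided, the smallest that 100000 resamples can give, adjusted p = 8e-05) and Spearman's rho was 0.960 (permutation p = 2e-05, adjusted p = 4e-05). Within the 7 CM mice r was 0.975 (exact permutation p = 0.00159, adjusted p = 0.00212) and rho 0.929 (exact permutation p = 0.00675, adjusted p = 0.00900). Within the 7 Ctrl mice r was 0.928 (exact permutation p = 0.00992, adjusted p = 0.00992) and rho 0.857 (exact permutation p = 0.0238, adjusted p = 0.0238). Leaving out mice 3338 and 3357, the farthest from the median of miR-143-3p, r was 0.959 over 12 mice (permutation p = 6e-05, adjusted p = 0.00012) and rho 0.944 (permutation p = 2e-05, adjusted p = 4e-05). The adjustment was over the 4 sets of mice for each coefficient.

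The question of the arm comparison was whether the PBMC of CM mice held more or less of the pair than those of Ctrl mice at the same month. Levels of the pair overlapped between arms at month 0, and the CM mice tended lower from month 1 to month 4 without passing the test except for miR-145a-5p at month 2. At month 0, before induction, miR-143-3p was 250.2 to 688 CPM in the 7 CM mice (median 431) and 255 to 1350 CPM in the 7 Ctrl mice (median 408). miR-145a-5p was 16.5 to 38.1 CPM (median 19.2) against 17.97 to 72.7 CPM (median 25.7), and the ranges overlapped widely. On raw counts with edgeR's quasi-likelihood test the log2 fold changes were -0.35 ± 0.39 (SE) for miR-143-3p (adjusted p = 0.734), -0.26 ± 0.33 for miR-145a-5p (adjusted p = 0.764) and -0.62 ± 0.52 for miR-145a-3p (adjusted p = 0.669). The share of all miRNAs tested that were called at adjusted p under 0.05 was 0.209% of 478. miR-143-5p was below the count filter in every monthly comparison.

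At month 1, miR-143-3p was 147 to 525 CPM in CM mice (n = 7, median 246) and 216 to 591 CPM in Ctrl mice (n = 7, median 435). The fitted difference was -0.57 ± 0.30 (edgeR adjusted p = 0.184). miR-145a-5p differed by -0.21 ± 0.50 (edgeR adjusted p = 0.777) and miR-145a-3p by 0.88 ± 0.51 (edgeR adjusted p = 0.216), while 27.5% of 472 miRNAs were called. The ranges of the arms overlapped for both guide strands.

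At month 2, miR-145a-5p was lower in the CM arm. Its level was 6.65 to 17.0 CPM in the 6 CM mice (median 14.2) and 17.9 to 33.2 CPM in the 7 Ctrl mice (median 24.2), so every CM library lay below every Ctrl library. The log2 fold change was -1.02 ± 0.25 (edgeR adjusted p = 0.0169), in a comparison that called 13.5% of 481 miRNAs. Without Ctrl mouse 3349, whose month 2 library was the shallowest with 1792809 counts, 26.6% of 478 were called. The call was lost with G number as a covariate within the month (-0.70, edgeR adjusted p = 0.429), where the count of all calls also went to 0 from 65, with no count filter (-0.96, edgeR adjusted p = 0.0525), and with all training libraries in a common fit (-1.03, edgeR adjusted p = 0.170, and -1.08, adjusted p = 0.200 with G number added). G is a number from 1 to 7 in the library titles whose meaning the labels do not give. At month 2 only G numbers 3 and 7 held libraries of both arms, and G numbers 1 and 2 held CM libraries alone. Arm and G number are thus largely confounded in that month. With 6 CM and 7 Ctrl libraries, that fit also has little left to estimate the spread. The loss of calls therefore cannot tell an effect of G from a loss of power. The partner of miR-145a-5p, miR-143-3p, was 159 to 388 CPM in CM mice (median 269) and 209 to 674 CPM in Ctrl mice (median 389), with overlapping ranges and a difference of -0.63 ± 0.28 (edgeR adjusted p = 0.146). miR-145a-3p was level between arms, at -0.01 ± 0.25 (edgeR adjusted p = 0.988).

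At months 3 and 4 the pair was lower in the CM mice on average, and the lowest CM libraries lay under every Ctrl library of the same month. miR-145a-5p was 2.99 to 23.2 CPM in 7 CM mice (median 11.6) and 16.0 to 34.8 CPM in 7 Ctrl mice (median 22.99) at month 3, a difference of -0.92 ± 0.39 (edgeR adjusted p = 0.102). DESeq2 (-0.96, adjusted p = 0.0461), limma-trend on the deposited CPM (-1.21, adjusted p = 0.0265) and edgeR without CM mouse 3368 (-1.19, adjusted p = 0.0386) called it. miR-143-3p differed by -0.44 ± 0.37 (edgeR adjusted p = 0.429). The test called 22% of 455 miRNAs in that month and 0.837% of 478 in the next. With G number as a covariate 6 miRNAs were called at month 3, where the arms shared only G number 3. At month 4 miR-143-3p was 22.2 to 544 CPM in 6 CM mice (median 301.2) and 230 to 1177 CPM in 7 Ctrl mice (median 424), differing by -0.92 ± 0.58 (edgeR adjusted p = 0.431), and miR-145a-5p differed by -0.97 ± 0.51 (edgeR adjusted p = 0.346). The arms shared no G number at month 4, so arm and G number cannot be told apart there.

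At month 5 the sign of the difference was the other way, in a different set of CM mice. Mice 3338 and 3357, the lowest CM mice at month 4 (22.2 and 72.9 CPM of miR-143-3p), had no later library. miR-143-3p was 948, 644, 610, 720 and 1705 CPM in CM mice 3334, 3336, 3341, 3368 and 3370, against 155 to 983 CPM in the 7 Ctrl mice (median 525). miR-145a-5p was 49.5, 33.98, 34.9, 36.9 and 143 CPM in the same CM mice, against 12.1 to 53.1 CPM in Ctrl mice (median 30.7). All 5 CM mice thus stood above the Ctrl median of both strands, with mouse 3370 the highest library of the cohort. The differences were 0.77 ± 0.42 for miR-143-3p (edgeR adjusted p = 0.308), 1.05 ± 0.45 for miR-145a-5p (edgeR adjusted p = 0.211) and 2.08 ± 0.45 for miR-145a-3p (edgeR adjusted p = 0.106). Without CM mouse 3370 they were 0.40 (edgeR adjusted p = 0.614), 0.44 (edgeR adjusted p = 0.532) and 1.31 (edgeR adjusted p = 0.181). At that month edgeR called 0% of 505 miRNAs (21.6% at an unadjusted p under 0.05) and limma-trend called 0, whereas DESeq2 called 21 and a common fit of all training libraries called 18. The edgeR share was 7.51% without Ctrl mouse 3335, 10.4% without mice 3334 and 3335, and 0.781% without CM mouse 3368. miR-145a-3p was among the called with DESeq2 (2.10, adjusted p = 0.00370), in the common fit (2.02, edgeR adjusted p = 0.00968), without Ctrl mouse 3335 (2.13, edgeR adjusted p = 0.0290) and without CM mouse 3368 (2.25, edgeR adjusted p = 0.0412). In the same 5 libraries the summed level of the 9 fibroblast and mesenchyme markers was 4037 to 9341 CPM (2454 to 5305 in the 7 Ctrl libraries). Over the training cohort miR-99a-5p was the most abundant of these markers, and it is also made by blood cells. The 4 red cell markers summed to 84760 to 147400 CPM (36010 to 134100 in Ctrl). The 2 endothelial markers summed to 217.7 to 703.8 CPM (148.1 to 384.7 in Ctrl) and the 7 striated muscle markers to 192.9 to 834.9 CPM (137.7 to 687.3 in Ctrl). The median log2 fold change of the tested markers was 0.51 (fibroblast and mesenchyme), 0.93 (red cell), 1.15 (endothelium) and 1.31 (striated muscle), with none called. The part of these markers in the result was not tested.

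At month 6 the 5 CM mice were spread from 31.3 CPM of miR-143-3p in mouse 3341 to 1296 CPM in mouse 3334, with 353, 525 and 178 CPM in mice 3336, 3368 and 3370, around the 294 to 1038 CPM of the 7 Ctrl mice. miR-143-3p differed by -0.41 ± 0.63 (edgeR adjusted p = 0.852) and miR-145a-5p by -0.55 ± 0.64 (edgeR adjusted p = 0.799). At month 6 edgeR called 0% of 444 miRNAs (31 at an unadjusted p under 0.05), DESeq2 and limma-trend called 0 each, and a common fit of all training libraries called 19. With G number as a covariate the signs turned, to 1.19 (edgeR adjusted p = 0.997) and 1.24 (edgeR adjusted p = 0.997). Without CM mouse 3334 the differences were -1.15 (edgeR adjusted p = 0.495) and -1.38 (edgeR adjusted p = 0.446), and without CM mouse 3341 they were -0.085 (edgeR adjusted p = 0.993) and -0.25 (edgeR adjusted p = 0.976). With the libraries labelled T6p5 in place of T6 for mice 3334 and 3336, the differences were -1.26 (edgeR adjusted p = 0.215) and -1.44 (edgeR adjusted p = 0.168).

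**Figure D3:**
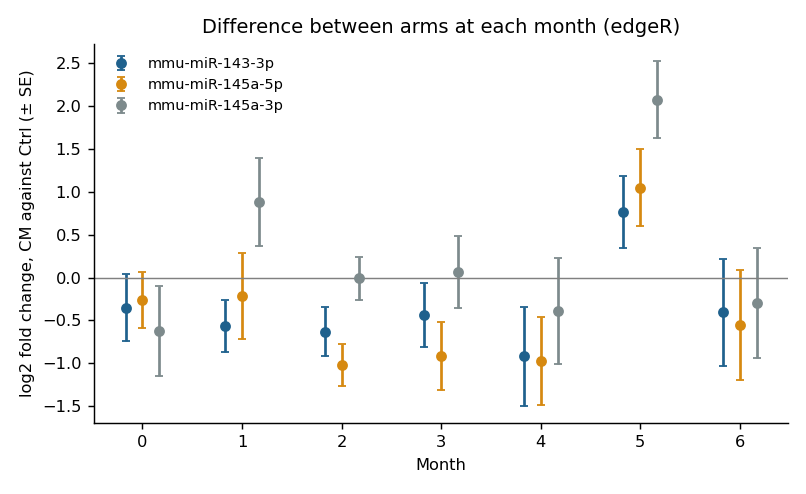
Log2 fold change of CM against Ctrl with its SE (edgeR on raw counts) at months 0 to 6 for mmu-miR-143-3p, mmu-miR-145a-5p and mmu-miR-145a-3p. The value of miR-145a-5p at month 2, -1.02 ± 0.25, was the called one, and all 3 strands were above 0 at month 5.

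To compare mice rather than libraries, the log2(CPM + 1) of each mouse was averaged over months 1 to 6. CM mice 3338 and 3357 had no library after month 4, mouse 3336 none of month 4 and mouse 3334 none of month 2. Every Ctrl mouse had a library in each of these months. The part of the missing months and of sex in the differences was not tested. miR-143-3p averaged 8.05 ± 0.84 (SD, n = 7 CM mice) and 8.78 ± 0.51 (SD, n = 7 Ctrl mice), a difference of -0.73 (exact permutation p = 0.0769, two-sided, adjusted over all miRNAs p = 0.153). miR-145a-5p averaged 3.86 ± 0.99 and 4.70 ± 0.42, a difference of -0.84 (exact permutation p = 0.0577, adjusted p = 0.123), and miR-145a-3p 1.92 ± 0.43 and 1.74 ± 0.25, a difference of 0.17 (exact permutation p = 0.393, adjusted p = 0.518). By this test 33.8% of 610 miRNAs were called, and miR-143-5p was below its filter of a mean of 1 CPM. The arms overlapped in order. CM mice 3338 and 3357 were the lowest of the 14 for both strands (112.6 and 127.9 CPM of miR-143-3p as back-transformed means), CM mouse 3341 and Ctrl mouse 3342 came next (248 and 243 CPM), CM mouse 3370 followed at 290 CPM, and CM mice 3336, 3334 and 3368 (429 to 456 CPM) stood among Ctrl mice 3346, 3335, 3340 and 3349 (377 to 500.3 CPM). Ctrl mice 3339 and 3350 were highest, at 607 and 713 CPM.

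The clearest difference between arms was in the strands of miR-145a. Of the miR-145a counts of months 1 to 6 summed for each mouse, miR-145a-3p made up 17.4 to 31.5% in the 7 CM mice (22.7 ± 4.5%, SD) and 11.9 to 15.6% in the 7 Ctrl mice (13.5 ± 1.46%, SD). The lowest CM mouse, 3334, had 188 of the 3p strand beside 891 of the 5p strand (17.4%, 95% exact Clopper-Pearson interval 15.2 to 19.8%), and the highest Ctrl mouse, 3346, had 15.6% (12.9 to 18.6%), so single neighbours overlapped within counting error while the arms did not overlap. The mean log2 ratio of 5p to 3p was 1.94 ± 0.59 (SD, n = 7) in CM mice and 2.95 ± 0.26 (SD, n = 7) in Ctrl mice, a difference of -1.01 (exact permutation p = 0.000583, two-sided, the smallest 7 against 7 mice can give, adjusted over the 3 ratios tested p = 0.00175). It was lower in 7 of 7 CM mice than in every Ctrl mouse. CM mice 3338 and 3357, with the highest 3p shares (31.5 and 24.7%), had libraries of months 1 to 4 only within this span. Strand ratios moved in many hairpins: of 164 hairpins with both strands at a mean of at least 1 CPM, 41.5% were called by the same test over all pairs (35 with a higher and 33 with a lower ratio in CM mice), the adjusted p of miR-145a there was 0.00290, and its difference was at rank 3 from the lowest. That wider test was chosen after the data were seen. Because the ratio of CPM + 1 shrinks at low levels, it was also taken from the summed raw counts with no pseudocount, again after the data were seen, and differed by -0.90 (exact permutation p = 0.000583). In the libraries of months 1 to 6 the endothelial markers, miR-126a-3p and miR-126a-5p, summed to 195 to 8281 CPM in CM mice (median 432) and 26.8 to 809 CPM in Ctrl mice (median 156). The paper reports that the fusion itself raises miR-126 in blood-forming cells, so the CM sums do not measure endothelium alone. The fibroblast and mesenchyme markers summed to 1336 to 9341 CPM (median 4099) and 1337 to 8615 CPM (median 2866), the striated muscle markers to 60.4 to 10790 CPM (median 487) and 30.8 to 687 CPM (median 166), and the red cell markers to 9114 to 418800 CPM (median 55180) and 9093 to 225000 CPM (median 38380). Most of the fibroblast and mesenchyme sum was miR-99a-5p, with medians of 3551 CPM in CM and 2364 CPM in Ctrl libraries. The part of these markers in the strand difference was not tested.

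Before induction the arms overlapped. At month 0 the 3p share was 8.97 to 21.5% in CM libraries (median 12.9%, n = 7) and 8.54 to 22.3% in Ctrl libraries (median 14.5%, n = 7), and the log2 ratio differed by -0.14 (exact permutation p = 0.522). From month 1 to month 4 the median 3p share of the CM libraries was 22.97, 21.2, 20.9 and 23.8%, and that of the Ctrl libraries 10.4, 11.8, 11.8 and 17.2%. At month 5 the medians were 20.2% (n = 5) and 9.93% (n = 7). At month 6 they were closer, 14.7% (n = 5) and 13.5% (n = 7), and the lowest CM library held no 3p count. The other ratios did not pass the test: miR-143-3p to miR-145a-5p differed by 0.11 (4.19 ± 0.21 and 4.08 ± 0.22, exact permutation p = 0.354, adjusted p = 0.354), and miR-143-3p to miR-143-5p, where the pseudocount of 1 outweighs most values of miR-143-5p, by -0.60 (exact permutation p = 0.0676, adjusted p = 0.101). The reads behind miR-145a-3p were few, and the 2 training tables differed in it: whole reads recovered from the normalized table made up 0.631 of its raw counts, 0.683 for miR-143-5p, 0.985 for miR-145a-5p and 0.907 for miR-143-3p.

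In the validation cohort only point 5 was sequenced deeply enough to follow the members, with 1645456 to 5445215 reads in 6 CM and 6 Ctrl libraries by the sample labels, whose split of validation mice differs from that in the design text. The 3p share of miR-145a there was 10.3 to 27.8% in CM mice (17.4 ± 6.49%, SD, n = 6) and 6.25 to 9.80% in Ctrl mice (7.49 ± 1.24%, SD, n = 6), again without overlap. The log2 ratio of 5p to 3p averaged 2.28 ± 0.66 and 3.59 ± 0.26, a difference of -1.31 (exact permutation p = 0.00217, two-sided, the smallest that 6 against 6 can give, chosen after the training data were seen). Counts were low: CM mouse 2684, with the highest share, had 5 reads of the 3p strand and 13 of the 5p strand (27.8%, 95% interval 9.69 to 53.5%).

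**Figure D4:**
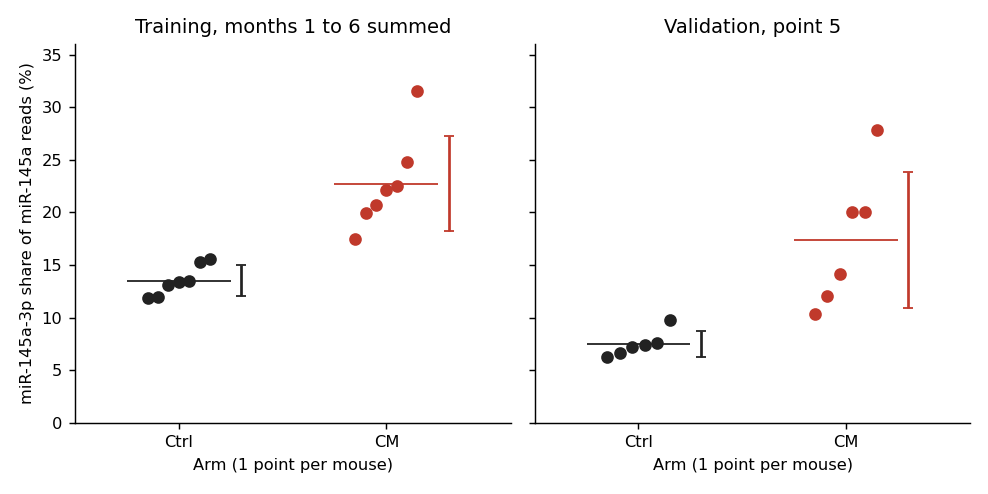
Share of miR-145a reads that are miR-145a-3p (percent) per mouse, from counts summed over months 1 to 6 in the training cohort (left, 7 CM and 7 Ctrl mice) and at point 5 of the validation cohort (right, 6 and 6), with the mean as a line and the SD as a bar. No CM mouse lies below a Ctrl mouse in either panel: the lowest CM values are 17.4% and 10.3%, the highest Ctrl values 15.6% and 9.80%.

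The levels at point 5 were lower on average in CM mice without passing the test. miR-143-3p was 1132 to 9340 CPM in 6 CM mice (median 2578) and 2307 to 10066 CPM in 6 Ctrl mice (median 7249), and miR-145a-5p was 36.1 to 415 CPM (median 158) and 136.4 to 532 CPM (median 397). By limma-trend on log2(CPM + 1) the differences were -0.98 ± 0.45 (SE) for miR-143-3p (adjusted p = 0.855), -1.40 ± 0.50 for miR-145a-5p (adjusted p = 0.816), -0.09 ± 0.47 for miR-145a-3p (adjusted p = 0.988) and 0.30 ± 0.87 for miR-143-5p (adjusted p = 0.982). limma-trend called 0% of 930 miRNAs (54 at an unadjusted p under 0.05), and edgeR on the recovered reads called 0 of 478. CPM values of the cohorts were scaled separately and are not comparable. In the other 90 validation libraries, with 1744 to 76906 reads each, miR-143-3p had a read in 17 libraries (at most 6 reads), miR-145a-5p in 10, miR-143-5p in 4 and miR-145a-3p in 2, and where miR-143-3p had none its level could still have been up to 39 to 1720 reads per 1000000.

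At the end of the CM series the pair was lower than at month 0 in 5 of the 7 mice. From month 0 to the last library, miR-143-3p went from 554 to 22.2 CPM in mouse 3338 (month 4), from 357 to 72.9 CPM in mouse 3357 (month 4), from 633 to 31.3 CPM in mouse 3341 (month 6) and from 688 to 58.6 CPM in mouse 3336 (month 7). In mouse 3370 it went from 431 to 205 CPM (month 9), in mouse 3334, whose title numbers cross with those of Ctrl mouse 3335 after month 5, from 250.2 to 310 CPM (month 6.5), and in mouse 3368 from 344 to 1487 CPM (month 10). The last library lay below every Ctrl library of the same month in 5 of 7 CM mice for miR-143-3p and in 5 of 7 for miR-145a-5p (month 6 was taken for mouse 3334), and mouse 3368 lay above every Ctrl library for miR-143-3p. miR-145a-5p followed: 1.39, 2.88, 2.57 and 3.51 CPM in mice 3338, 3357, 3341 and 3336, 13.1 CPM in mouse 3370, 19.3 CPM in mouse 3334 and 54.6 CPM in mouse 3368. Mice 3338, 3357, 3341 and 3336, with the largest falls, were female, and mice 3370, 3334 and 3368 were male. The last library had G number 1 in mice 3338 and 3357 and G number 3 in mice 3341, 3336 and 3370. It had G number 6 in mice 3334 and 3368, the mice without a fall, so the fall and G number cannot be told apart. The part of sex and of G number in this change was not tested.

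Over the 7 mice the change did not pass the test: -0.58 ± 0.77 for miR-143-3p (edgeR adjusted p = 0.571) and -0.89 ± 0.68 for miR-145a-5p (edgeR adjusted p = 0.306), where 39% of 446 miRNAs were called. With mouse as a block the changes were -2.08 (edgeR adjusted p = 0.0970) and -1.89 (edgeR adjusted p = 0.1003). Leaving out mice 3334 and 3335, the unblocked changes were -0.68 (edgeR adjusted p = 0.577) and -1.045 (edgeR adjusted p = 0.322). Without mouse 3368 they were -2.09 (edgeR adjusted p = 0.0116) and -2.001 (edgeR adjusted p = 0.0132), both called. The same last libraries held 213 CPM (mouse 3368) to 5388 CPM (mouse 3341) of miR-126a-3p, a miRNA known from endothelium and from leukemia of core-binding factor fusions. The median of miR-126a-3p was 1624 CPM over the 7 last libraries and 121.3 CPM over the same mice at month 0. Over the 46 CM libraries from month 1 on, the rho of miR-143-3p with miR-126a-3p was -0.376. From month 0 to the last libraries the summed fibroblast and mesenchyme markers went from a median of 2538 CPM (1540 to 3959) to 1396 CPM (611 to 5914, highest in mouse 3368), the striated muscle markers from 193 CPM (146 to 1015) to 180.1 CPM (60.4 to 1207), and the blood markers from 110300 CPM (90160 to 136100) to 61640 CPM (50860 to 103400). The median of miR-99a-5p, the most abundant of the fibroblast and mesenchyme list, went from 2160 to 1195 CPM. The part of these markers in the change of the pair was not tested.

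**Figure D5:**
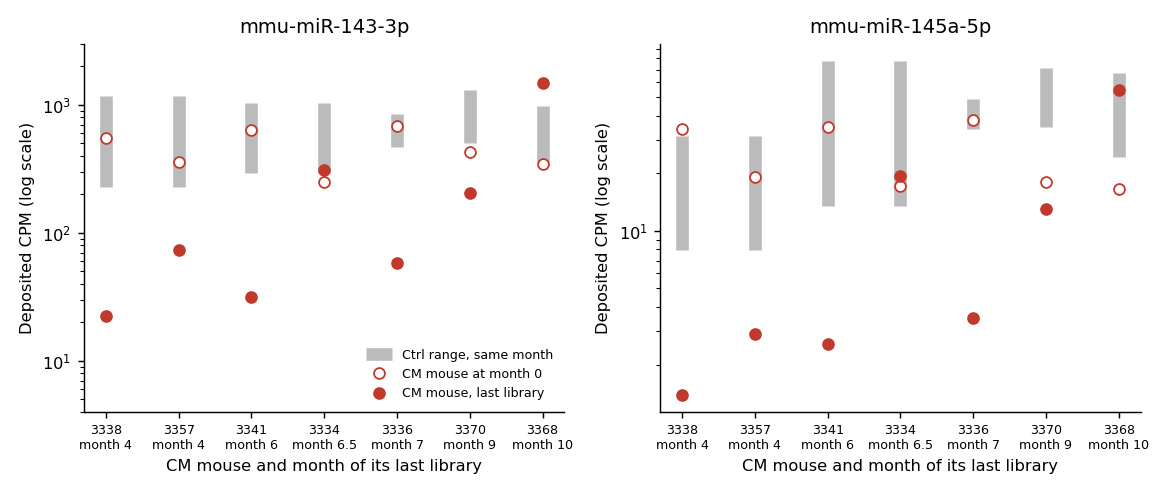
Deposited CPM (log axis) of mmu-miR-143-3p (left) and mmu-miR-145a-5p (right) in each CM mouse at month 0 (open) and in its last library (filled), with the range of the Ctrl mice at the same month (grey, 6 or 7 mice, month 6 for mouse 3334). The filled point lies below the grey range in mice 3338, 3357, 3341, 3336 and 3370, inside it in mouse 3334, and above it for miR-143-3p in mouse 3368.

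From before induction to the month after it, no member changed past the threshold in either arm, except miR-143-3p in CM mice with raw library sizes (-0.92, edgeR adjusted p = 0.0404). From month 0 to month 1 miR-143-3p changed by -0.71 ± 0.30 in CM mice (edgeR adjusted p = 0.122) and by -0.57 ± 0.40 in Ctrl mice (edgeR adjusted p = 0.483). miR-145a-5p changed by -0.27 ± 0.51 (edgeR adjusted p = 0.779) and -0.41 ± 0.34 (edgeR adjusted p = 0.555), and miR-145a-3p by 0.51 ± 0.55 (edgeR adjusted p = 0.590) and -1.09 ± 0.50 (edgeR adjusted p = 0.333). In the interaction test of the arms the change differed by -0.10 ± 0.52 for miR-143-3p (edgeR adjusted p = 0.934), 0.19 ± 0.64 for miR-145a-5p (edgeR adjusted p = 0.892) and 1.65 ± 0.77 for miR-145a-3p (edgeR adjusted p = 0.160). The calls over all miRNAs were 12.7% of 466 in CM mice, 0.63% of 476 in Ctrl mice and 8.46% of 520 for the interaction. The share in CM mice fell on leaving out mouse 3336 (4.49%), 3338 (2.78%), 3357 (2.77%), 3368 (2.35%) or 3370 (2.53%). With mouse as a block the calls went from 59 to 16 in CM mice, from 3 to 0 in Ctrl mice and from 44 to 21 for the interaction, and miR-143-3p in CM mice was at -0.76 (edgeR adjusted p = 0.0822).

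In Ctrl mice the level of the pair varied with the month and was highest late. The median of miR-143-3p over 7 mice was 408 CPM (month 0), 435 CPM (month 1), 424 CPM (month 4), 651 CPM (month 6), 743 CPM (month 7), 764 CPM (month 8) and 1124 CPM (month 9), and over 6 mice 836 CPM (month 10). The median of miR-145a-5p went from 24.8 CPM at month 1 to 59.7 CPM at month 9. Month was a called term for 4 of the 4 members (edgeR, F = 3.73, adjusted p = 0.00145 for miR-143-3p; F = 5.41, adjusted p = 3.88e-05 for miR-145a-5p; F = 2.67, adjusted p = 0.0157 for miR-143-5p; F = 3.14, adjusted p = 0.00527 for miR-145a-3p), but so it was for 66.2% of the 603 miRNAs tested. The call of miR-143-5p was lost without mouse 3340 (adjusted p = 0.0796) or 3349 (adjusted p = 0.0626), and that of miR-145a-3p without mouse 3340 (adjusted p = 0.0631). Against month 0, the month 6 level of miR-143-3p differed by -0.00 ± 0.41 (edgeR adjusted p = 0.998) and that of miR-145a-5p by 0.34 ± 0.39 (edgeR adjusted p = 0.562). The month 10 levels differed by 0.44 ± 0.41 (edgeR adjusted p = 0.466) and 0.68 ± 0.34 (edgeR adjusted p = 0.143). These comparisons called 20.5% of 474 and 26.8% of 477 miRNAs, the latter falling to 17.9% with mouse as a block and to 14.8% without mouse 3339, and the former to 11% without mouse 3339 and 12.7% without mouse 3350. Without Ctrl mouse 3335, which held 1350 CPM of miR-143-3p at month 0, the change to month 10 was called for both strands, at 0.96 (edgeR adjusted p = 0.0452) and 1.20 (edgeR adjusted p = 0.000647).

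Ctrl mice also differed from each other in miR-145a-5p. Mouse was a called term for miR-145a-5p (F = 4.17, edgeR adjusted p = 0.0417) and not for miR-143-3p (F = 3.51, edgeR adjusted p = 0.0912), miR-145a-3p (F = 2.26, edgeR adjusted p = 0.256) or miR-143-5p (F = 1.76, edgeR adjusted p = 0.414), where 3.81% of 603 miRNAs were called. Without Ctrl mouse 3342, the lowest of the arm, F of miR-145a-5p was 2.67 (edgeR adjusted p = 0.288), and the call was also lost without mouse 3340, 3346, 3349 or 3350 (adjusted p = 0.0528 to 0.0731) and with raw library sizes (adjusted p = 0.0719). miR-143-3p gained the call without mouse 3349 (F = 4.87, edgeR adjusted p = 0.0495). The SD of log2(CPM + 1) over the 76 Ctrl libraries was 0.76 for miR-143-3p and 0.70 for miR-145a-5p, at percentiles 83.8 and 76.7 of 339 miRNAs of at least 10 CPM. G number, over all training libraries, was not a called term for any member (edgeR adjusted p = 0.667 to 0.959), while 5.77% of 815 miRNAs were called. This fit treated the libraries of a mouse as independent.

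Markers of other cell types were set beside the pair. The blood markers that define PBMC were abundant: the 6 of them summed to 44390 to 151200 CPM in Ctrl libraries of months 1 to 6, led by miR-150-5p of lymphocytes and miR-142a-3p of all blood cells, while the 4 members summed to 172 to 1217 CPM in Ctrl and 23.9 to 1879 CPM in CM libraries. The 4 red cell markers, led by miR-451a and miR-486a-5p, summed to 9093 to 225000 CPM in Ctrl and 9114 to 418800 CPM in CM libraries of those months. Over the 76 Ctrl libraries the rho of miR-143-3p was 0.621 with the 2 endothelial markers miR-126a-3p and miR-126a-5p, 0.522 with the 9 fibroblast and mesenchyme markers, of which miR-99a-5p (rho = 0.516) and miR-125b-5p (rho = 0.465) were the most abundant, 0.468 with the red cell markers, 0.306 with the 7 striated muscle markers (miR-1a-3p and miR-133a-3p the most abundant), -0.0541 with the 7 epithelial markers (miR-203-3p and miR-200c-3p), -0.101 with miR-122-5p of liver and -0.552 with the blood markers. With total counts the rho was -0.0831. The fibroblast and mesenchyme sum was mostly miR-99a-5p. In Ctrl libraries of months 1 to 6 the medians were 2364 CPM for miR-99a-5p and 2866 CPM for the list. Over all training libraries, the rho with the endothelial markers was -0.0645 and with the fibroblast list 0.420.

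Between arms at month 2, where miR-145a-5p was lower, the other lists moved in both directions. miR-126a-3p and miR-126a-5p rose (2 of 2 tested), 2 of 4 striated muscle markers rose, 1 of 5 fibroblast and mesenchyme markers rose (miR-99a-5p), 1 of 7 epithelial markers fell, 1 of 6 blood markers fell and 2 of 4 red cell markers rose, while miR-122-5p was not called. In that month 13.5% of 481 miRNAs were called, and none of these calls was left with G number as a covariate. The median log2 fold change was 0.79 in the fibroblast list, beside -0.02 over all 481 miRNAs. Several of these miRNAs are also made by blood cells, miR-99a-5p, miR-125b-5p and miR-126a among them. Most Ctrl libraries of months 1 to 6 were at 0 for miR-214-5p (88.1% of 42 libraries, 1 of the 9 fibroblast and mesenchyme markers) and for miR-208a-3p and miR-208b-3p (97.6% each, of the 7 striated muscle markers), and 57.1% of the 7 last CM libraries were also at 0 for miR-214-3p and miR-206-3p. How much non-blood RNA these libraries held was not tested.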

How the data were processed

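MicroRNA-seq of PBMC was analysed from the authors' raw mirTOP counts (training) and the deposited CPM tables (both cohorts). Per the study's methods, reads were trimmed with cutadapt, kept above 16 bases, aligned with Bowtie to mm9 and miRBase release 18, and scaled with TMM in edgeR; the labels name GRCm38, and the build was not settled. mirTOP settings are not given in the sources used here. Deposited CPM columns do not sum to 1000000 and are a TMM-scaled signal from which whole reads were recovered by the scale of low values (100% whole within 0.1). Libraries were grouped by title. Raw counts were tested across all miRNAs with edgeR 4.0.16 (quasi-likelihood, filterByExpr, TMM, adjusted p threshold 0.05), deposited CPM with limma 3.58.1 on log2(CPM + 1), and mice with exact permutation tests. DESeq2 1.42.0 was an alternative. The common fits of all training libraries treated the libraries of a mouse as independent, so their p-values may be too small. Tests were checked on simulated data. The members, markers and lists were chosen with earlier results of these data known: the members always, the 5 nearest miRNAs to each guide strand, and the 2 most abundant of each marker list were named. Pairing by mouse comes from the labels, since libraries of a mouse share its number. No libraries held identical values. In the 2 training tables strands differ in yield, so counts and CPM are not interchangeable for miR-145a-3p.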

Additional observations from a re-analysis of the deposited data

Results flagged for a closer look

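In 6 of the 80 groups of 5 to 7 mice tested, a single mouse stood farther from the rest than Dixon's test allows, and chance alone gives about 1 in 20. In Ctrl mice at month 10, miR-143-3p was 355.9 CPM in mouse 3335 and 744 to 986 CPM in the others. In CM mice at month 5, miR-145a-5p was 143.5 CPM in mouse 3370 and 33.98 to 49.5 CPM in the others. Ctrl mouse 3342 was the low one in 3 of the 6: miR-145a-5p at month 4 was 7.97 CPM against 18.1 to 31.5 CPM, miR-145a-3p at month 5 was 0.941 CPM against 2.47 to 2.80 CPM, and miR-143-5p at month 8 was 0.0 CPM against 0.586 to 1.08 CPM. In Ctrl mouse 3349 at month 1, miR-145a-3p was 4.49 CPM, and 1.07 to 2.12 CPM in the others.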

How the results depend on the processing

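Of 852 alternative values over 61 results, 773 kept their direction and side of the threshold, 13 lost a call, 16 gained one and 50 changed sign, and 34 results held under every alternative run. The cause of these changes was not tested. For CM against Ctrl with G number as a covariate, the month 0 changes of miR-143-3p, miR-145a-3p and miR-145a-5p were 0.25, 0.14 and 0.10, those at month 6 were 1.19, 1.64 and 1.24, and miR-145a-3p at month 1 was -0.0014. At month 4 this covariate could not be fitted, because the arms shared no G number. Without mice 3334 and 3335, the month 0 changes were 0.055, 0.056 and 0.15. miR-145a-3p, near 0 at month 2, was 0.0078 with raw library sizes, 0.039 with no filter, 0.105 with G number, 0.0034 without mice 3334 and 3335 and 0.15 with limma-trend. At month 3 it was -0.0031 with no filter, -0.0096 with sex as a covariate, -0.031 in the fit of all training libraries and -0.0049 with limma-trend. miR-145a-5p at month 2 was not called with no filter (-0.96), with G number (-0.70), or in the fit of all training libraries (-1.03, and -1.08 with G number), and at month 3 it was called with DESeq2 (-0.96) and limma-trend (-1.21). miR-143-3p in CM mice from month 0 to month 1 was called with raw library sizes (-0.92, adjusted p = 0.0404). F of mouse for miR-145a-5p was 3.91 with raw library sizes.

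With mouse as a replicate block, the pairing turned the Ctrl change to month 6 to 0.24 for miR-143-3p and 0.14 for miR-145a-3p, and the difference between arms from month 0 to month 1 to -0.39 for miR-145a-5p. It changed no call of a member. The Ctrl change to month 6 of miR-143-3p was 0.0055 with raw library sizes, and without mice 3334 and 3335 it was 0.51, with 0.57 for miR-145a-3p. The same omission gave the called values at month 10 of 0.96 and 1.20 for miR-143-3p and miR-145a-5p.

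Leaving out each mouse in turn, miR-145a-5p ranged from -0.43 to 0.082 at month 0 and from -1.19 to -0.74 at month 3. miR-145a-3p ranged from -0.10 to 0.16 at month 2, from -0.22 to 0.21 at month 3, from -1.13 to 0.0066 at month 6 and from -0.27 to 0.077 at validation point 5, where miR-143-5p ranged from -0.13 to 0.66. The change to the last CM library ranged from -2.09 to -0.25 for miR-143-3p and from -2.001 to -0.57 for miR-145a-5p. The Ctrl change to month 6 ranged from -0.24 to 0.51 for miR-143-3p and from -0.49 to 0.57 for miR-145a-3p, and that to month 10 from 0.31 to 0.96, 0.47 to 1.20 and -0.052 to 0.85 for miR-143-3p, miR-145a-5p and miR-145a-3p. F of mouse ranged from 2.67 to 5.83 for miR-145a-5p and from 2.93 to 4.87 for miR-143-3p. The lower miR-145a ratio of 5p to 3p in CM mice passed under every alternative run, from -1.09 to -0.90. These were CPM from the raw counts with TMM, a pseudocount of 0.5, the omission of mice 3334 and 3335, and summed raw counts. The ratio was not run leaving out each mouse in turn, nor with sex or G number. Over all miRNAs, the calls at month 2 went from 13.5% to 21.5% with DESeq2, to 22.2% with the edgeR test on recovered reads (chosen after the data were seen), to 2.63% with no filter and to 0 with G number, which also left 10 calls at month 1 and 6 at month 3. At month 4 they went from 4 to 23 with DESeq2, 13 with no filter, 70 in the fit of all training libraries, 51 with G number added, 10 on recovered reads and 0 with sex as a covariate. With raw library sizes, calls went from 59 to 39 for CM month 1 against month 0 and from 23 to 10 for mouse. Depth limits miR-143-5p and miR-145a-3p, with medians of 4 and 17 counts per training library.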
